A study of Rattus norvegicus with 6 samples.

Results

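Cathepsins are the proteases that break down protein inside lysosomes, the acid digestive compartments of the cell, and legumain is the lysosomal protease that cuts after asparagine and helps to mature several cathepsins. They are made as inactive precursors, mostly carried to the lysosome by mannose 6-phosphate receptors, and activated at low pH, while cystatins inhibit the cysteine proteases among them. Some members, such as cathepsin B, are made by nearly all cells, whereas cathepsins S and K are best known from antigen-presenting cells and osteoclasts. The genes described here are the 10 named Ctsa, Ctsb, Ctsc, Ctsd, Ctsh, Ctsk, Ctsl, Ctss, Ctsz and Lgmn. They were found by gene name among the 18077 rows of the count tables, and each name occurred once.

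PolyA-selected RNA was sequenced from 6 libraries of neonatal rat cultures exposed for 24 h to the saturated fatty acid palmitic acid at 500 µM and harvested after 48 h. Of these, 3 were labelled Ad-RNF128 (an adenovirus for overexpression of the ubiquitin ligase RNF128) and 3 Ad-GFP (the control vector with green fluorescent protein). All cultures carried an adenovirus and all received palmitic acid, so the comparison holds nothing on either agent by itself. The labels describe cardiomyocytes from pups of 1 to 3 days, pre-plated and grown with BrdU to limit fibroblasts.

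The counts did not bear out 2 of these labels. Rnf128 had 1, 3 and 1 counts in the libraries labelled Ad-RNF128 and 0, 2 and 1 counts in the Ad-GFP libraries, so each direction given here rests on a label that the rat Rnf128 counts do not bear out. Whether RNF128 reads from the vector would be counted on the rat gene was not tested. The cardiac myosin gene Myh6 was at 14.3, 10.8 and 0.104 CPM (counts per 1000000 counts of the library) in Ad-RNF128 and at 16.02, 13.4 and 11.1 CPM in Ad-GFP, while the skeletal muscle regulator Myod1 was at 25.3 to 32.7 CPM in Ad-RNF128 and 50.5 to 63.3 CPM in Ad-GFP. Library totals ran from 16352843 to 21708973 counts. Ad-GFP replicate 1 stood apart from all other libraries, where 3551 genes had no read (1190 to 2288 elsewhere). Over the 13173 genes tested without it, its CPM differed from the mean of Ad-GFP replicates 2 and 3 by a median absolute log2 ratio of 2.34. Each result is therefore given with this library and without it. Fewer cells of a type and less RNA per cell cannot be told apart in these bulk samples.

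By abundance the 10 genes formed 2 classes. Ctsa, Ctsb, Ctsd, Ctsl and Lgmn had between 1295 and 43382 counts in every library. Ctsc, Ctsh, Ctsk, Ctss and Ctsz had 29 counts or fewer in every library and did not pass the filter on low counts. The 5 abundant genes passed it through both groups.

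Promoters are shown for the gene with the largest log2 change (Ctsl), the one with the smallest (Ctsd) and a near-undetected gene with an interferon-type motif (Ctss). Each is the 300 bases from 250 before to 50 after the RefSeq gene start in build GRCr8, and 9 of the 10 genes had an entry. Both strands were searched for CACGTG, the E-box core read by the TFEB family of lysosomal regulators, for GAAANNGAAA, the core of the interferon-stimulated response element, and for TTCNNNGAA, the STAT-type GAS element. Capitals mark the matches, and no matches overlapped.
Ctsl (GRCr8 chr17:769854-770153, strand +): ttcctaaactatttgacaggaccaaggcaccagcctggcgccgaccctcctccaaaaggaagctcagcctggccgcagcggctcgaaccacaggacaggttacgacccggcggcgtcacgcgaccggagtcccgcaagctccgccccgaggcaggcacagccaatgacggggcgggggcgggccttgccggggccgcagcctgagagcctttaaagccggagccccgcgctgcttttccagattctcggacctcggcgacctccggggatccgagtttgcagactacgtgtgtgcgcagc
Ctsd (GRCr8 chr1:206968772-206969071, strand -): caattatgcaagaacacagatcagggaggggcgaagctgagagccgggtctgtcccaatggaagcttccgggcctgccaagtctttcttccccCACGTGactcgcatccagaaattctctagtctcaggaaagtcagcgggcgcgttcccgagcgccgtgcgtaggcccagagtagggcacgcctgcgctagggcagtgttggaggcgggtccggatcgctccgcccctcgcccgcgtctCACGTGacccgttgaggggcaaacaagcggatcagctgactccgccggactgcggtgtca
Ctss (GRCr8 chr2:185775146-185775445, strand +): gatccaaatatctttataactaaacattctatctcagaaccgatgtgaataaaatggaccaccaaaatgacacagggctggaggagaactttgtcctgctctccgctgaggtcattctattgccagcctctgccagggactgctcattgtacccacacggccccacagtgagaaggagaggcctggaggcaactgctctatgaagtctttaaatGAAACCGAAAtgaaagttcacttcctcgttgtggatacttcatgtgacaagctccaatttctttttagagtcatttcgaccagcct
CACGTG was in 1 of the 9 member windows, and 6.42% of all 33469 promoter windows held this motif. The 1 window was that of Ctsd, with the motif at 2 places, beginning 157 and 10 bases before the start. GAAANNGAAA was in 1 of the 9 member windows, against 3.92% of all windows. The 1 window was that of Ctss, shown here because it held this motif, which began 36 bases before the start. TTCNNNGAA, which 8.87% of all windows held, was in none of the 9 windows, and Ctsl held none of these letters in its window. Among the other lysosomal hydrolases CACGTG was in 5 of 20 windows, and among the sorting genes in 4 of 9. It was in 2 of 12 windows of the lysosomal membrane list and 1 of 7 of the other peptidases. The cystatin list held it in 1 of 12 windows and the class II list in 1 of 10.

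The cysteine endopeptidases Ctsl and Ctsb, which cut within proteins, had the largest log2 changes of the 10 genes without Ad-GFP replicate 1. Ctsl (ENSRNOG00000018566) was at 965, 1018 and 985 CPM in the libraries labelled Ad-RNF128, against 392, 325 and 302 CPM in Ad-GFP replicates 1, 2 and 3. By CPM every Ad-RNF128 library lay above every Ad-GFP library, and the means were 989 ± 26.6 CPM in Ad-RNF128 and 339.9 ± 46.8 CPM in Ad-GFP (SD, n = 3 each). Against Ad-GFP replicates 2 and 3 alone, Ctsl rose 2.84-fold, a log2 change of 1.50 ± 0.07 (SE, edgeR quasi-likelihood adjusted p = 7.13e-11). Only 5.52% of the 13173 genes tested had a larger log2 change. Over all 6 libraries the log2 change was 0.79 ± 0.54 and did not pass (edgeR adjusted p = 0.692). With the TMM scaling of that fit the groups overlapped, at 790, 835 and 816 scaled CPM in Ad-RNF128, against 835, 296 and 281 scaled CPM in Ad-GFP replicates 1, 2 and 3.

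Ctsb (ENSRNOG00000010331), which also has a carboxypeptidase activity, was at 1943, 1998 and 2101 CPM in Ad-RNF128, against 1858, 815 and 891 CPM in Ad-GFP replicates 1 to 3. By CPM the groups did not overlap, but Ad-GFP replicate 1 lay close under the Ad-RNF128 libraries and far above its own group, with a counting interval of 1837 to 1879 CPM. Without that library Ctsb rose 2.12-fold (log2 change 1.08 ± 0.07, edgeR adjusted p = 1.14e-08). Over all 6 libraries its log2 change was -0.15 ± 0.74 with TMM scaling (edgeR adjusted p = 0.985) and 0.76 with library totals alone, so its sign there depends on the scaling. TMM-scaled CPM put Ad-GFP replicate 1, at 3952, above the Ad-RNF128 libraries at 1590, 1640 and 1741. The mean was 2014 ± 79.9 CPM in Ad-RNF128 and 1188 ± 581 CPM in Ad-GFP (SD, n = 3 each).

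The serine carboxypeptidase Ctsa (ENSRNOG00000015857), which also shields the sialidase Neu1 and the galactosidase Glb1 from degradation, was at 977, 936 and 1026 CPM in Ad-RNF128 and at 488, 598 and 628 CPM in Ad-GFP. By CPM Ad-GFP replicate 1 was the lowest library and the groups did not overlap, while with TMM scaling over all 6 libraries it was the highest, since the scaled CPM was 799, 768 and 851 in Ad-RNF128, against 1039, 545 and 584 in Ad-GFP. Ctsa rose 1.44-fold without it (log2 change 0.52 ± 0.07, edgeR adjusted p = 1.44e-05) and had a log2 change of 0.16 ± 0.40 with it (adjusted p = 0.964). Its partner Neu1 was at 75.4, 71.5 and 77.8 CPM in Ad-RNF128, against 102, 34.6 and 37.5 CPM in Ad-GFP, and rose by a log2 change of 0.90 ± 0.08 without Ad-GFP replicate 1 (adjusted p = 1.92e-07). Glb1 did not rise with them. It was at 124, 122 and 137 CPM in Ad-RNF128, against 52.0, 129 and 139 CPM in Ad-GFP, with a log2 change of -0.22 ± 0.07 (adjusted p = 0.0193) that no longer passed with library totals alone (-0.07, adjusted p = 0.415).

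Legumain (Lgmn, ENSRNOG00000007089) was at 196, 180.1 and 189 CPM in Ad-RNF128, against 79.2, 125 and 127 CPM in Ad-GFP. As for Ctsa, Ad-GFP replicate 1 was the lowest library by CPM, with no overlap of the groups, and the highest with TMM scaling, where the scaled CPM was 160.1, 148 and 157 in Ad-RNF128, against 168, 114 and 118 in Ad-GFP. The rise was 1.34-fold without that library (log2 change 0.42 ± 0.07, edgeR adjusted p = 7.57e-05), and the log2 change was 0.21 ± 0.33 with it (adjusted p = 0.915).

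Ctsd (ENSRNOG00000020206), the main aspartic protease of the lysosome, was the only abundant member whose unscaled CPM overlapped between the groups over all 6 libraries. It was at 1356, 1364 and 1454 CPM in Ad-RNF128, against 2527, 1016 and 1123 CPM in Ad-GFP replicates 1, 2 and 3. Ad-GFP replicate 1 was the highest library and the other Ad-GFP libraries were the lowest, and the Ad-RNF128 libraries lay between them. Without Ad-GFP replicate 1 Ctsd rose 1.17-fold (log2 change 0.22 ± 0.07, edgeR adjusted p = 0.0153), and 33.3% of all genes tested had a larger log2 change. The call ended when Ad-GFP replicate 2 was left out as well (log2 change 0.13, adjusted p = 0.147), a fit in which the lone Ad-GFP library is assumed to vary like the Ad-RNF128 libraries. Over all 6 libraries the log2 change was -1.10 ± 0.77 (adjusted p = 0.706).

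**Figure D1:**
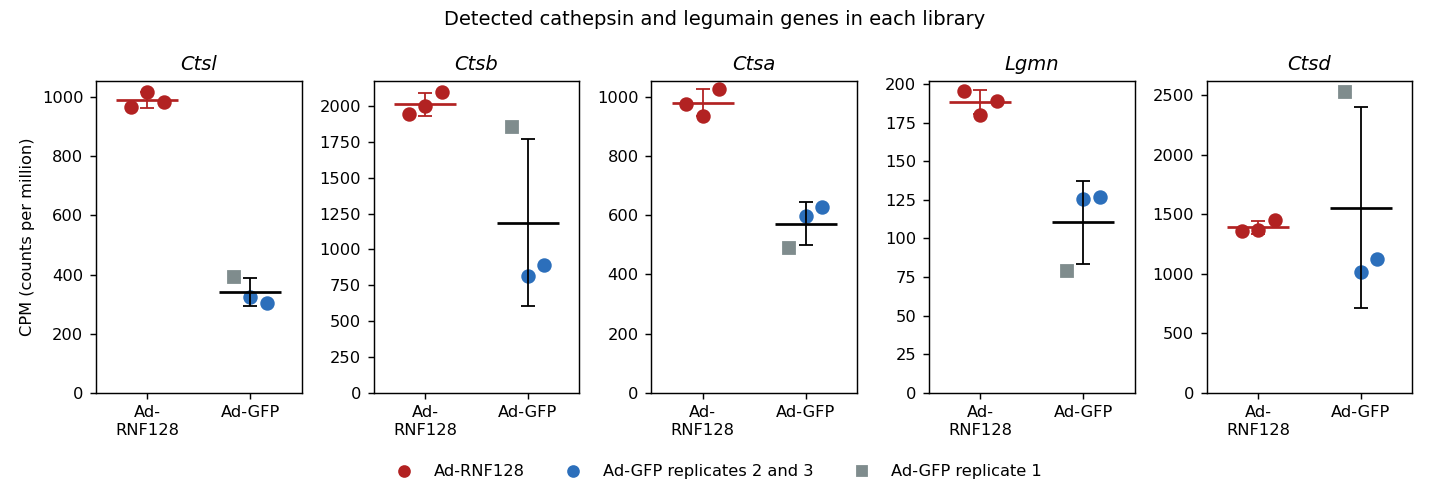
CPM of the 5 abundant genes in each library, with Ad-RNF128 at the left of each panel and Ad-GFP at the right; lines and bars are the mean and SD of 3 libraries, and each axis starts at 0. By this CPM, which has no TMM scaling, the Ad-RNF128 points lie above all Ad-GFP points for Ctsl, Ctsb, Ctsa and Lgmn, while for Ctsd Ad-GFP replicate 1 (grey square, 2527 CPM) lies above them.

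As counts of calls, 5 of the 5 abundant genes rose without Ad-GFP replicate 1, where 28.9% of the 13173 genes tested rose 28% fell and 56.9% were called in either direction. With library totals alone the split over all genes was 5367 that rose and 2409 that fell, against 3812 and 3689 with TMM, and the 5 were called higher under both. At an adjusted p under 0.01, 4 of the 5 rose, all but Ctsd, where 22.3% of genes rose, 22.1% fell and 44.4% were called. The median log2 change of these 5 was 0.52, against 0.01 over all genes tested. Ctsl and Ctsb rose at least 2-fold, which 8.37% of the genes tested did. Over all 6 libraries 0 of the 5 were called, as were 0 of 12863 genes (0% by edgeR). There 742 genes had an unadjusted p under 0.05, and 8 were called with library totals alone, 14 with limma-voom and 386 with DESeq2. None of these alternatives called any of the 5. By CPM alone, 4 of the 5 lay above every Ad-GFP library in every Ad-RNF128 library, as did 30.4% of the 12863 genes tested, while 3.59% lay below every Ad-GFP library. With TMM-scaled CPM, an alternative chosen after seeing the data, 0 of the 5 did so, against 15.5% of the genes tested, and 10.3% lay below.

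**Figure D2:**
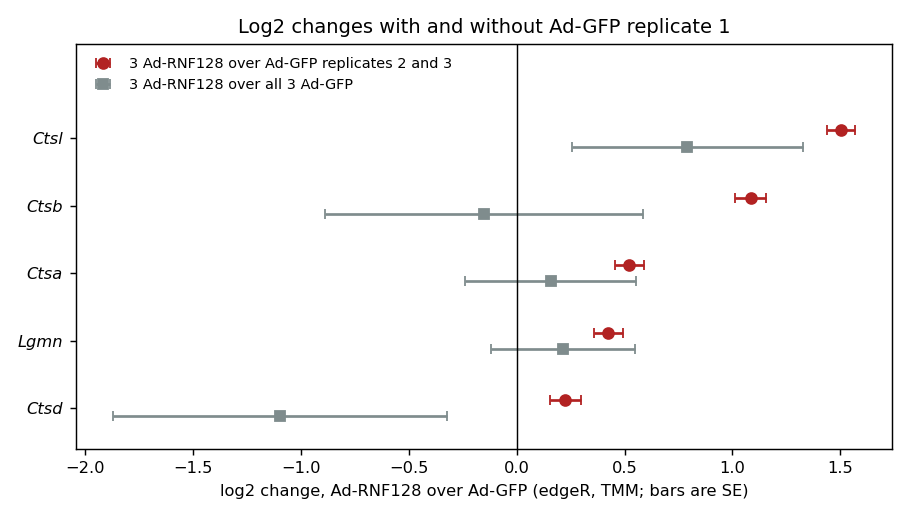
The edgeR log2 changes with their SE for the 5 abundant genes, Ad-RNF128 over Ad-GFP, without Ad-GFP replicate 1 (red circles) and with it (grey squares). Without it all 5 values are above 0, from 0.22 for Ctsd to 1.50 for Ctsl, and with it the bars are wider and the signs of Ctsa, Ctsb and Lgmn depend on the scaling.

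Ratios within a library do not depend on how libraries are scaled. Those of the other abundant members to Ctsd were higher in every Ad-RNF128 library than in every Ad-GFP library. Ctsd had the smallest log2 change of the 5, both with and without Ad-GFP replicate 1. The mean direction of these ratios thus followed from the choice of Ctsd as reference. The count ratio of Ctsb to Ctsd was 1.43, 1.46 and 1.44 in Ad-RNF128, against 0.735, 0.802 and 0.793 in Ad-GFP replicates 1 to 3. For this ratio Ad-GFP replicate 1 was close to the other controls, although its CPM of both genes was far above theirs. The ratio of Ctsl to Ctsd was 0.712, 0.746 and 0.677 in Ad-RNF128, against 0.155, 0.320 and 0.269 in Ad-GFP. Ctsa to Ctsd gave 0.720, 0.686 and 0.706 in Ad-RNF128, against 0.193, 0.588 and 0.559 in Ad-GFP. Lgmn to Ctsd gave 0.144, 0.132 and 0.1301 in Ad-RNF128, against 0.0313, 0.123 and 0.113 in Ad-GFP, so the groups came closest here. These 4 ratios share Ctsd and are not independent. Of the other genes tested, 13.6% had a ratio to Ctsd above all Ad-GFP libraries in every Ad-RNF128 library, and 5.36% had one below them.

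The ratios were higher in Ad-RNF128 by 1.86-fold for Ctsb, 3.00-fold for Ctsl, 1.76-fold for Ctsa and 1.78-fold for Lgmn over the geometric means of 3 libraries each. Without Ad-GFP replicate 1 these were 1.81-fold, 2.42-fold, 1.23-fold and 1.15-fold. Each of the 4, like Ctsl to Ctsb and Ctsl to Ctsa, had a two-sided exact permutation p of 0.1, the smallest that 3 against 3 libraries allows, and an adjusted p of 0.167 over the 10 pairs computed, so none could pass. Ctsd took 24.9%, 24.8% and 25.3% of the summed counts of the 5 genes in Ad-RNF128, against 47.3%, 35.3% and 36.6% in Ad-GFP. Ctsl took 17.8%, 18.5% and 17.1% in Ad-RNF128, against 7.34%, 11.3% and 9.85% in Ad-GFP. These are shares of counts, not of molecules, since no transcript lengths were used. The 10 genes together took 0.544%, 0.550% and 0.576% of all counts in Ad-RNF128, against 0.535%, 0.288% and 0.307% in Ad-GFP.

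**Figure D3:**
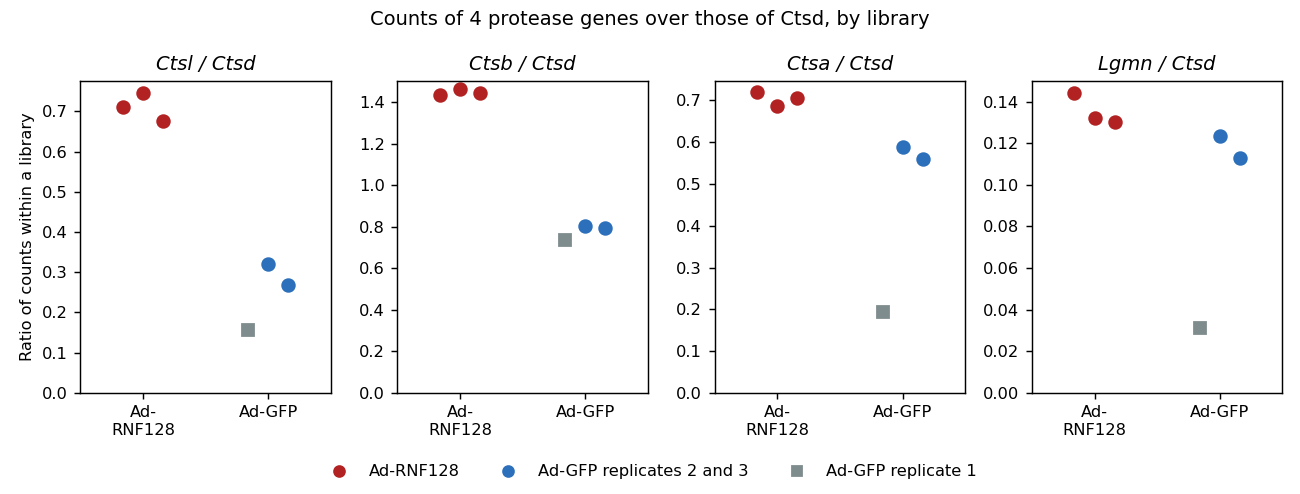
Counts of Ctsl, Ctsb, Ctsa and Lgmn divided by those of Ctsd within each library, with Ad-RNF128 at the left of each panel and Ad-GFP at the right; axes start at 0. In every panel the 3 Ad-RNF128 points lie above the 3 Ad-GFP points, and for Ctsb the grey square of Ad-GFP replicate 1 (0.735) lies beside the other controls.

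The other 5 members were close to the limit of detection. Ctss (ENSRNOG00000021157), which trims the invariant chain of class II molecules in antigen-presenting cells, had 6, 4 and 5 counts in Ad-RNF128 and 0, 4 and 4 in Ad-GFP. Ctsk (ENSRNOG00000021155), the collagen-degrading protease of osteoclasts, had 5 counts in each Ad-RNF128 library and 1, 10 and 5 in Ad-GFP. The groups overlapped for both genes, and the ratios of pooled CPM over Ad-GFP replicates 2 and 3 were 1.27 for Ctss (95% counting interval 0.506 to 3.46) and 0.678 for Ctsk (0.309 to 1.49). A difference within these bounds was not detectable at this depth.

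The exopeptidases Ctsc and Ctsz were lower still. Ctsc (ENSRNOG00000016496), which activates granule proteases of immune cells, had 0, 2 and 0 counts in Ad-RNF128 and 1, 1 and 2 in Ad-GFP. Ctsz (ENSRNOG00000050697), a carboxypeptidase, had 1 count in each Ad-RNF128 library and 2, 1 and 1 in Ad-GFP. No library held either gene above the floor of 3 counts, which is 0.138 to 0.183 CPM. Of all 18077 rows, 16.7% had fewer than 5 counts in every library.

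Ctsh (ENSRNOG00000014064), an aminopeptidase, had 0, 2 and 29 counts in Ad-RNF128 and 13, 8 and 10 in Ad-GFP. Its spread came from Ad-RNF128 replicate 3, whose 29 counts were the highest of all libraries while replicates 1 and 2 of that group were the lowest. The ratio over Ad-GFP replicates 2 and 3 was 1.17, with a counting interval of 0.633 to 2.22 that does not cover this spread. The same library was the one with Myh6 at 0.104 CPM, and whether the 2 values are linked was not tested.

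**Figure D4:**
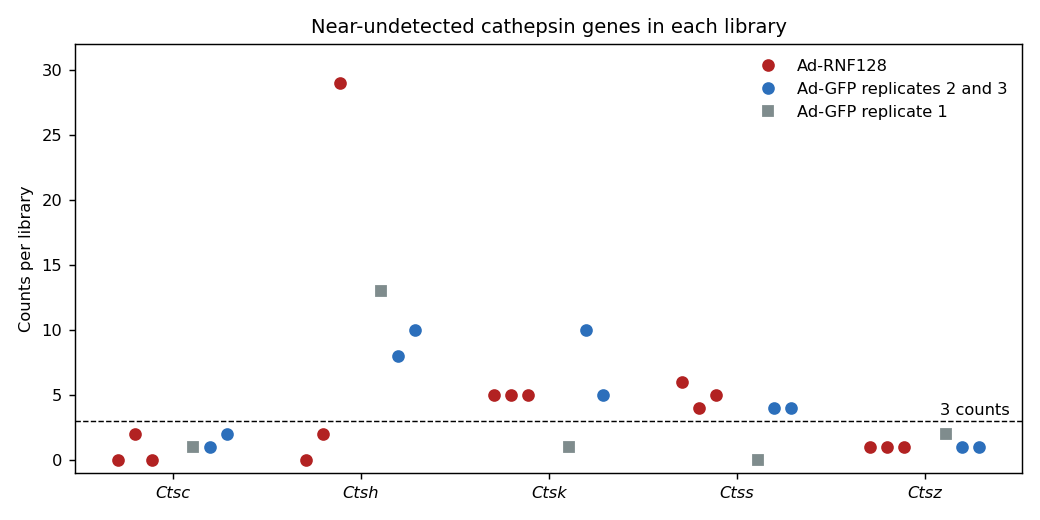
Counts per library of the 5 near-undetected cathepsin genes, with the Ad-RNF128 libraries left of the Ad-GFP libraries for each gene; the dashed line marks 3 counts. Ctsc and Ctsz stay at 2 counts or fewer, and the single high point is the 29 counts of Ctsh in Ad-RNF128 replicate 3.

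Markers of macrophages, a cell type rich in cathepsins, were low in all libraries. Of 16 listed macrophage genes 13 were measured and 4 of them were tested without Ad-GFP replicate 1. The summed level of the list was 22.7 to 23.9 CPM in Ad-RNF128, against 17.1 and 17.8 CPM in Ad-GFP replicates 2 and 3 and 35.7 CPM in replicate 1. Most of this was the lipopolysaccharide receptor gene Cd14, at 18.3 to 19.2 CPM in Ad-RNF128 and 33.6, 16.1 and 15.7 CPM in Ad-GFP. The leukocyte antigen Ptprc had at most 0.156 CPM in any library. Csf1r and Cd68 had 10 counts or fewer in each Ad-GFP library and passed the filter through Ad-RNF128, where they were high, so no count of calls is given for this list. For the same reason their differences are given as descriptions only. Csf1r, the receptor of a macrophage growth factor, was at 2.22, 2.67 and 1.97 CPM in Ad-RNF128, against 0.245, 0.388 and 0.469 CPM in Ad-GFP (log2 change 2.24 ± 0.33 without Ad-GFP replicate 1). Cd68, a glycoprotein of macrophage lysosomes, was at 0.702, 1.11 and 0.883 CPM in Ad-RNF128, against 0.367, 0.222 and 0.375 CPM in Ad-GFP (log2 change 1.41 ± 0.45). Of the 4 tested genes, Cd14 (0.09 ± 0.09, edgeR adjusted p = 0.427) and Lyz2 (0.42 ± 0.49, adjusted p = 0.485) did not pass. Lyz2 was named after its values were seen.

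Markers of other cell types differed between the libraries as well, and they are read against the 28.9% of all genes that rose and the 28% that fell without Ad-GFP replicate 1. The summed fibroblast markers were at 10785 to 11716 CPM in Ad-RNF128, against 38745 to 40357 CPM in Ad-GFP replicates 2 and 3 and 3257 CPM in replicate 1. Of 9 tested 6 fell, led by the collagen genes Col1a1 (log2 change -2.37 ± 0.07), Col1a2 (-1.82 ± 0.07) and Col3a1 (-1.62 ± 0.07). Skeletal muscle markers summed to 52.2 to 53.3 CPM in Ad-RNF128, against 119 to 122 CPM in Ad-GFP replicates 2 and 3 and 82.4 CPM in replicate 1. Of the 9 tested, Myh8 and Tnni2 had 4 counts or fewer in each Ad-RNF128 library. They passed the filter only through Ad-GFP replicates 2 and 3, where they were high, so no count of calls is given for this list. Falls of genes that passed it through both groups included the muscle regulators Myog (-2.61 ± 0.13) and Myod1 (-0.92 ± 0.09) and the actin gene Acta1 (-2.29 ± 0.20), while Mymk rose (1.26 ± 0.21).

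Cardiomyocyte markers summed to 39.3 to 108 CPM in Ad-RNF128, against 405 to 408 CPM in Ad-GFP replicates 2 and 3 and 67.0 CPM in replicate 1. Most of this difference was the troponin gene Tnnt2, at 57.4, 42.3 and 34.0 CPM in Ad-RNF128, against 13.3, 342 and 350.4 CPM in Ad-GFP. Without Tnnt2 the sums were 51.1, 41.1 and 5.25 CPM in Ad-RNF128, against 53.6, 65.6 and 54.3 CPM in Ad-GFP, so Ad-RNF128 replicate 3 stood apart. That library had 2 counts of Myh6, 1 of Myh7 and 0 of Nppa, against 59 or more of each in every other library. Of 9 tested 2 fell, Tnnt2 (-3.12 ± 0.13) and the titin gene Ttn (-1.98 ± 0.17), and 0 rose, where 28% of all genes fell. The median log2 change of the 9 was -0.83, against 0.01 over all genes tested. Actn2 had a log2 change of -1.02 ± 0.47 that did not pass (edgeR adjusted p = 0.0805). Myh6, near undetected in Ad-RNF128 replicate 3, did not pass either (-0.71 ± 0.59). Endothelial markers summed to 6.96 to 8.19 CPM in Ad-RNF128, against 4.78 to 5.04 CPM in Ad-GFP replicates 2 and 3 and 6.60 CPM in replicate 1. Vwf, an endothelial clotting factor, had a log2 change of 0.51 ± 0.17, and Cdh5 had 2 and 5 counts in those controls. Calls among the endothelial genes numbered 0 with DESeq2, with the replicate block or without Ad-GFP replicate 3. The part of these markers in the cathepsin results was not tested. The 5 abundant genes were still called higher when Ad-RNF128 replicate 3 was left out together with Ad-GFP replicate 1. That fit cannot separate the markers from the cathepsin results. Tnnt2 and the summed fibroblast and skeletal muscle markers were lower in every Ad-RNF128 library than in Ad-GFP replicates 2 and 3.

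Class II antigen presentation genes, whose products meet Ctss and Lgmn in the endosome, ranged from undetected in some libraries to well above the floor of 3 counts in every library. RT1-DMa, a peptide-loading chain, was at 9.24, 10.3 and 13.1 CPM in Ad-RNF128 and 70.7, 2.55 and 2.95 CPM in Ad-GFP, and it rose without Ad-GFP replicate 1 (log2 change 1.82 ± 0.19, adjusted p = 1.3e-06). Ifi30, a lysosomal thiol reductase, did not pass (10.5, 10.3 and 9.30 CPM in Ad-RNF128, against 10.7, 8.70 and 8.30 CPM in Ad-GFP), nor did the invariant chain Cd74 (0.03 ± 0.38), both named after their values were seen. Of the 7 tested genes 4 had fewer than 10 counts in both Ad-GFP replicates 2 and 3 and passed the filter only through Ad-RNF128, so no count or median is given for the list. Among these was Ciita, the activator of class II genes, at 1.75, 1.47 and 1.92 CPM in Ad-RNF128 and 1.53, 0.388 and 0.328 CPM in Ad-GFP. RT1-Db1, a class II beta chain, was another, with 33 counts in Ad-RNF128 and 0 in Ad-GFP replicates 2 and 3. The counting interval of this ratio began at 5.74, while Ad-GFP replicate 1 held the gene at 1.90 CPM.

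Other lysosomal peptidases rose alongside. Of 8 measured genes 6 were tested without Ad-GFP replicate 1, and all 6 rose, with a median log2 change of 0.67. Of all genes tested there 28.9% rose and 56.9% were called in either direction, with a median log2 change of 0.01. Over all 6 libraries 0 of these peptidase genes were called. Dpp7, a dipeptidyl peptidase, was at 509, 488 and 526 CPM in Ad-RNF128, against 2013, 191 and 216 CPM in Ad-GFP (log2 change 1.16 ± 0.08 without Ad-GFP replicate 1). Tpp1, a tripeptidyl peptidase, was at 656, 628 and 684 CPM in Ad-RNF128, against 246, 399 and 367 CPM in Ad-GFP (0.62 ± 0.07). Ctso, a little-studied cathepsin, was at 7.43, 7.19 and 8.21 CPM in Ad-RNF128, against 0.0612, 2.22 and 2.16 CPM in Ad-GFP (1.64 ± 0.18). For Tpp1 and Ctso Ad-GFP replicate 1 was the lowest library, and for Dpp7 it was the highest.

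Of 15 listed cysteine protease inhibitor genes 4 were measured, and Cst3 and Cstb rose without Ad-GFP replicate 1. Cystatin C (Cst3), a secreted inhibitor, was at 472, 478 and 475 CPM in Ad-RNF128, against 1824, 175 and 204 CPM in Ad-GFP (log2 change 1.17 ± 0.08 without Ad-GFP replicate 1, edgeR adjusted p = 1.09e-08). Cystatin B (Cstb), which acts in the cytosol, was at 84.6, 86.9 and 82.1 CPM in Ad-RNF128, against 6.91, 48.5 and 43.0 CPM in Ad-GFP (0.73 ± 0.07, adjusted p = 5.94e-07). Ad-GFP replicate 1 thus held the highest Cst3 and the lowest Cstb of the 6 libraries. Ctla2a, related to a cathepsin propeptide, had 49 counts in Ad-RNF128 and 1 in Ad-GFP replicates 2 and 3 (ratio 33.2, counting interval 5.69 to 1339), so it passed the filter only through Ad-RNF128 and its difference is a description. Cst7 had 6 counts in Ad-RNF128 and 2 in those controls.

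Among genes of mannose 6-phosphate tagging and sorting, 3 of 8 tested without Ad-GFP replicate 1 rose, 3 fell and 2 did not pass, with a median log2 change of 0.11, close to the 28.9% and 28% of all genes. Igf2r, the large mannose 6-phosphate receptor, was at 38.8, 44.3 and 45.7 CPM in Ad-RNF128, against 2.14, 60.9 and 64.6 CPM in Ad-GFP (-0.70 ± 0.08). Sort1, another sorting receptor, fell as well (126, 109.8 and 119.6 CPM in Ad-RNF128, against 22.1, 157 and 177 CPM in Ad-GFP, -0.65 ± 0.08), and so did Gnptab, the enzyme that starts the tag (-0.46 ± 0.07). M6pr, the small mannose 6-phosphate receptor, rose (301, 307 and 301 CPM in Ad-RNF128, against 36.8, 223 and 217 CPM in Ad-GFP, 0.31 ± 0.06), as did Gnptg (0.65 ± 0.11) and the lysosomal glycoprotein gene Grn (0.87 ± 0.07). Gnptab, Gnptg and M6pr were named after their values were seen.

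Of 31 other lysosomal hydrolases tested without Ad-GFP replicate 1, 23 rose, 3 fell and 5 did not pass, with a median log2 change of 0.41 and a count of falls that went to 1 with library totals alone. Idua, which degrades glycosaminoglycans, was at 83.8, 75.5 and 84.7 CPM in Ad-RNF128, against 24.2, 41.4 and 36.8 CPM in Ad-GFP (0.90 ± 0.08), and the phospholipase Pla2g15 was at 82.6, 84.3 and 99.4 CPM in Ad-RNF128, against 139, 35.3 and 39.6 CPM in Ad-GFP (1.09 ± 0.10). Of 10 lysosomal membrane and lipid transfer genes 8 rose and 2 fell, with a median of 0.33, and the falls numbered 1 with library totals alone or without Ad-GFP replicate 3, Ad-RNF128 replicate 1 or Ad-RNF128 replicate 2. Cd63, a membrane tetraspanin, was at 2357, 2266 and 2405 CPM in Ad-RNF128, against 6607, 1111 and 1108 CPM in Ad-GFP (0.92 ± 0.06). Tmem192 and the cholesterol-binding Npc2 rose by 1.07 ± 0.09 and 0.63 ± 0.07. These counts are to be read against the 28.9% of all genes that rose. No gene of any of these lists was called over all 6 libraries.

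**Figure D5:**
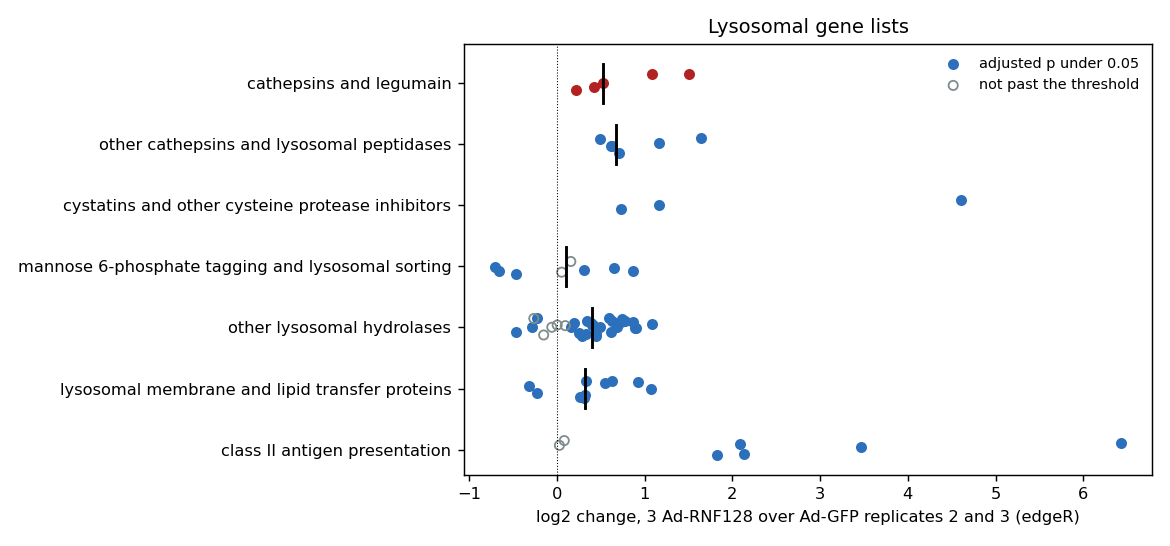
The edgeR log2 changes without Ad-GFP replicate 1 for the tested genes of 7 lysosomal lists, with filled points past an adjusted p of 0.05 and black ticks at the list medians (none for the cystatin and class II lists, where some genes passed the filter only through Ad-RNF128). The cathepsin and legumain points (top row) run from 0.22 to 1.50, and only the sorting, hydrolase and membrane lists have filled points below 0. Values above 4 belong to RT1-Db1 and Ctla2a, with 0 and 1 counts in Ad-GFP replicates 2 and 3 together but 31 and 6 in Ad-GFP replicate 1. Both passed the filter only through Ad-RNF128, so their filled points are descriptions.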

How the data were processed

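Per the submitters' processing notes, the deposited tables were made with HISAT2 (no version listed), HTSeq 0.13.5 and build mRatBN7.2. Strand setting and annotation release are not given in the sources used here. Overlapping and antisense genes cannot be told apart. The authors deposited raw counts for each gene. The deposited Ad-GFP replicate 1 was handled as a file of expected counts because 1 value is not whole (344.5), and it was rounded. The 106 rows that repeat an ID were kept. CPM is the count times 1000000 over the library total.

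Counts were tested with edgeR 4.0.16 in R 4.3.3 (filterByExpr, TMM, quasi-likelihood F-test, Benjamini-Hochberg over all genes tested, threshold 0.05), as Ad-RNF128 over Ad-GFP, with all 6 libraries and without Ad-GFP replicate 1. The TMM factor was 0.47 for that library and 1.08 to 1.22 elsewhere. Each SE was derived from the log2 change and its F statistic. The scripts were tested on simulated data. Intervals are exact at 95% and, like the floor of 3 counts, cover counting error only.

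The members, the lists and the comparison without Ad-GFP replicate 1 were chosen with earlier results of these data known. All 10 members are named, with the 3 genes of smallest p in each further list, every measured cystatin, and Neu1 and Glb1. Replicate numbers come from the titles and no separate cultures are named, so the p-values reflect sample-to-sample spread that may be technical only. Alternatives included DESeq2 1.42.0 and limma 3.58.1 (voom). Promoter windows are RefSeq's, in GRCr8. No other coordinates were used.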

Additional observations from a re-analysis of the deposited data

How the results depend on the processing

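Without Ad-GFP replicate 1, all 5 abundant genes kept their direction under every alternative run, and their calls held at an adjusted p under 0.05 except for Ctsd without Ad-GFP replicate 2 (log2 change 0.13). The number called was 4 to 5 when a further library was left out, and 4 at an adjusted p under 0.01. Over all genes the median was 0.01, and 0.17 with library totals alone.

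Over all 6 libraries, leaving out each library in turn gave 0 to 7501 genes and 0 to 5 of the abundant genes called, the upper values being those without Ad-GFP replicate 1. Library totals alone called 8 genes, limma-voom 14 and DESeq2 386. Signs turned for Ctsa (-0.15) and Lgmn (-0.063 and -0.062) with median-of-ratios size factors and DESeq2. The sign of Ctsb turned with library totals alone (0.76), limma-voom (0.33), the replicate block (0.34) and without Ad-GFP replicate 1 (1.08), and that of Ctsd without Ad-GFP replicate 1 (0.22). Leaving out each library gave -0.50 to 1.08 for Ctsb and -1.46 to 0.22 for Ctsd. The cause of these turns was not tested.

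The deviations of same-numbered libraries had correlations of -0.178, 0.0131 and -0.136. Against Ad-RNF128 replicate 1, Ad-GFP replicates 2 and 3 gave 0.181 and 0.171, opposite in sign to Ad-GFP replicate 1. Because Ad-GFP replicate 1 shapes these values, they cannot show whether same-numbered libraries share a culture or batch. With a replicate block 0 genes were called over all 6 libraries and 7795 without Ad-GFP replicate 1. Alternatives for the further lists were chosen after seeing the data. Low counts limit Ctsc, Ctsh, Ctsk, Ctss and Ctsz.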

Other observations

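For the 3 members with the smallest p, the genes with the most similar profile over the 6 libraries were sought among 10323 genes with a mean of at least 5 CPM. Likeness was the root mean square difference of centred log2(CPM + 1), whose median over those genes was 1.07 for Ctsl, 1.06 for Ctsb and 0.855 for Ctsa. The values near 0 describe 6 libraries and no test was made.

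Closest to Ctsl were Ets2 (0.0950), Dok5 (0.0975) and Isg20 (0.0987). Ets2 was at 80.7, 85.8 and 80.9 CPM in Ad-RNF128, against 37.4, 24.6 and 24.7 CPM in Ad-GFP. Closest to Ctsb were Desi1 (0.026), Ttc7a (0.061) and Ryr1 (0.066). Desi1 was at 213, 219 and 226 CPM in Ad-RNF128, against 208, 85.9 and 94.6 CPM in Ad-GFP, so Ad-GFP replicate 1 lay close to the Ad-RNF128 libraries as for Ctsb. Closest to Ctsa were Dnaja4 (0.040), Fadd (0.041) and RGD1311946 (0.044).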
